A study of Mus musculus with 2 samples.

Results

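The genes of the photoreceptor's calcium feedback and response shut-off were described by cell class in 2 droplet single-cell RNA libraries. They were chosen by symbol, as the rows of both deposited matrices named Guca1a, Guca1b, Gucy2e, Gucy2f, Rcvrn, Grk1, Rgs9, Gnb5, Pdc or Slc24a1, which gave 10 of the 32286 features listed, and all 10 were counted in both libraries. Both libraries were made from the optic cup (retina with the tissue behind it) of Abca4KO mice, which lack a retinoid transporter of photoreceptor outer segments and serve as a model of Stargardt disease. One library, labelled AAV2.8-GFP, came from eyes given a control vector, and the other, labelled AAV2.8-Sponge.mir181, from eyes given a vector whose transcript is meant to bind and occupy the microRNAs miR-181a and miR-181b. The series describes subretinal injection of both eyes at 2 months, with opposite vectors in each mouse, and collection 4 months later, whereas the labels state an age of 4 months. A group is 1 library. The mice behind it, the promoter of the vectors and the dose are not given in the sources used here.

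In darkness a photoreceptor holds its channels open with cyclic GMP, and calcium enters through them. Light closes the channels, calcium falls, and the calcium sensors GCAP1 (Guca1a) and GCAP2 (Guca1b) then switch on the membrane guanylate cyclases (Gucy2e and Gucy2f) that restore cyclic GMP. Recoverin (Rcvrn) restrains the visual pigment kinase (Grk1) while calcium is high, the RGS9 and Gβ5 complex (Rgs9, Gnb5) speeds the shut-off of transducin, phosducin (Pdc) binds the transducin βγ pair, and the exchanger NCKX1 (Slc24a1) carries calcium out of the rod outer segment. Cones share most of these proteins with rods but use their own opsins, transducin and exchanger (Slc24a2).

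The files give each member with an Ensembl identifier, and all 10 identifiers matched GENCODE M21 (mm10), from which their positions are taken. The sensors are Guca1a (ENSMUSG00000023982) at chr17:47394558-47400584 on the minus strand and Guca1b (ENSMUSG00000023979) at chr17:47385393-47392967 on the plus strand. The cyclases are Gucy2e (ENSMUSG00000020890) at chr11:69218117-69237036 on the minus strand and Gucy2f (ENSMUSG00000042282) at chrX:142081160-142196931 on the minus strand. The kinase and its inhibitor are Grk1 (ENSMUSG00000031450) at chr8:13405081-13421951 on the plus strand and Rcvrn (ENSMUSG00000020907) at chr11:67695326-67703333 on the plus strand. The transducin regulators are Rgs9 (ENSMUSG00000020599) at chr11:109225355-109298129 on the minus strand, Gnb5 (ENSMUSG00000032192) at chr9:75306288-75345876 on the plus strand and Pdc (ENSMUSG00000006007) at chr1:150319417-150333906 on the plus strand, and the exchanger is Slc24a1 (ENSMUSG00000034452) at chr9:64922861-64951607 on the minus strand.

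The deposited values are counts of unique molecular identifiers (UMIs), 1 per captured transcript molecule. The library labelled GFP held 123040365 UMIs in 39461 barcodes and the library labelled sponge 132067896 UMIs in 23267 barcodes. After filtering, 39285 and 23200 cells remained, with medians of 2415 and 2980.5 UMIs, and 290 barcodes occurred in both libraries. Sums over the cells of a class are given as CPM, the counts scaled to a common total of all UMIs in that class and library. The eGFP transcript was counted 12 times in the library labelled GFP and 5484 times in the library labelled sponge, so it does not follow the label GFP, and the libraries are therefore named by their labels throughout. Of the 5484, 4736 were in retinal pigment epithelium (RPE, 677 CPM), 144 in rods (9.59 CPM) and 55 in cones (31.5 CPM). Which rods or cones received a vector was not tested. Whether the sponge vector also carries eGFP is not stated in the labels. An exchange of the libraries was not tested, and it would reverse every direction between libraries given below. Abca4 itself was counted at 133 CPM in rods of the library labelled GFP and 134 CPM in rods of the library labelled sponge. Because 3' tags do not show whether they come from the undeleted part of the gene, this neither supports nor contradicts the genotype. Since a group is a single library, replicate error cannot be given and no test was made: every interval below is a 95% interval for counting error alone.

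Rods were 1 cluster, in which all 12 rod markers fixed for naming were enriched, and cones were 1 cluster with all 11 cone markers enriched. They held 4853 and 5795 rods (library labelled GFP, then sponge) and 740 and 431 cones. The members themselves were left out of the clustering. A further 11 classes had at least 50 cells in each library. A cluster led by haemoglobin genes, with rod markers and markers of amacrine cells, was left unnamed under a naming rule set after the clusters were seen, and it held 9.17% and 22.7% of kept cells (GFP, then sponge). A further 2 small unnamed clusters with cone markers held 247 and 37 cells. The libraries differed within the rod class: median depth was 1608 against 2337 UMIs, mitochondrial UMIs were 14.0% against 8.65%, and haemoglobin genes summed to 1232 against 155 CPM.

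Of the members, 2 carry a full seed match for the microRNAs that the sponge is meant to bind, and both are shown here with the microRNAs because the comparison of libraries turns on that treatment. Mature miR-181a-5p and miR-181b-5p (RefSeq, GRCm38.p6) share the seed, bases 2 to 8, set in capitals.
mmu-miR-181a-5p: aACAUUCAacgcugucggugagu
mmu-miR-181b-5p: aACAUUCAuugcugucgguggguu
The matching letters TGAATGT were searched on the transcript strand in annotated 3' untranslated regions (GENCODE M21, mm10), where 3633 of 21028 genes (17.3%) held them. Gucy2f holds 1 such site, followed by an A (an 8mer), on the minus strand at chrX:142085405-142085433, and Grk1 holds 1 without it (a 7mer-m8), on the plus strand at chr8:13421607-13421635. Capitals mark the seed match and, in Gucy2f, the A after it.
Gucy2f: gcaaactgaaaTGAATGTAaacacccagg
Grk1: ggctcaatattTGAATGTttggtcattaa
The other 8 members hold no 7mer-m8 or 8mer match. Pdc holds 2 sites of the 7mer-A1 kind, which lack the base opposite position 8, and Gucy2f holds 1 more. A match is a description of letters and not a measured binding site.

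All 10 members were highest in rods or cones in both libraries, where 17.7% of 20550 genes in the library labelled GFP and 18.4% of 20642 in the library labelled sponge were highest in one of these classes. The calcium sensors divided between the photoreceptors. Guca1a was highest in cones, at 1219.9 CPM in the library labelled GFP and 2169.7 CPM in the library labelled sponge, above rods at 922 and 1233 CPM. Guca1b, next to Guca1a on chromosome 17 with 1590 bases between their facing 3' ends, was highest in rods, at 372 and 597 CPM, above cones at 265 and 248 CPM. Written as log2 rod over cone, Guca1a was at −0.40 (−0.48 to −0.33) and −0.82 (−0.87 to −0.77) and Guca1b at 0.49 (0.34 to 0.65) and 1.26 (1.13 to 1.41) in the libraries labelled GFP and sponge. The intervals of these neighbouring genes lay on opposite sides of 0 in each library.

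The cyclases also differed in their distribution. Gucy2e was nearly level, at 124 CPM in rods and 131 CPM in cones of the library labelled GFP and 157 and 155 CPM in the library labelled sponge, and its rod over cone intervals included 0 in both. Gucy2f, by contrast, stood at 265 CPM in rods and 95.7 CPM in cones of the library labelled GFP, a log2 difference of 1.47 (1.22 to 1.73), and at 425 against 68.8 CPM in the library labelled sponge, a difference of 2.62 (2.37 to 2.90). Gucy2f was the 1 member past 2-fold between rods and cones in the library labelled GFP, where 9.62% of 14011 measured genes were, and 1 of 3 in the library labelled sponge, where 17.0% of 15093 were. The others there were Guca1b and Slc24a1.

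Among the kinase group, Rcvrn was level between rods (946 CPM) and cones (915 CPM) in the library labelled GFP and higher in cones (1541 CPM) than in rods (1132 CPM) in the library labelled sponge. Grk1, the kinase that mouse rods and cones share, was higher in rods in both, at 234 against 196 CPM and at 366 against 294 CPM. Rgs9 and Gnb5, which form 1 complex, differed in distribution. Rgs9 was level in rods and cones (712 and 730.4 CPM in the library labelled GFP, 879 and 911 CPM in the library labelled sponge), whereas Gnb5 was higher in rods only in the library labelled sponge (507 against 363 CPM), with 367 against 336 CPM and an interval that included 0 in the library labelled GFP. Pdc was higher in rods in both, at 1665 against 1223 CPM and 1784 against 1092 CPM. Slc24a1 was higher in rods at 686 against 396 CPM and 783 against 232 CPM, log2 differences of 0.79 (0.67 to 0.92) and 1.75 (1.61 to 1.90). Its relative Slc24a2, the cone exchanger, had the opposite distribution, at 21.5 CPM in rods and 417 CPM in cones of the library labelled GFP and 11.7 and 717 CPM in the library labelled sponge.

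**Figure D1:**
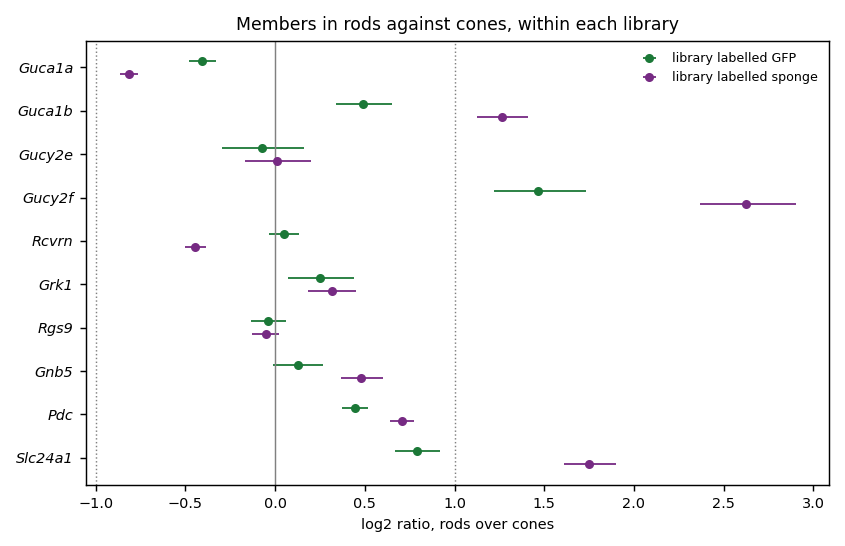
Log2 ratio of rods over cones (horizontal axis) for each of the 10 members (vertical axis), in the library labelled GFP (green) and the library labelled sponge (purple). Points are ratios of summed counts, bars are 95% counting intervals and dotted lines mark 2-fold: Gucy2f and Slc24a1 lie to the right in both libraries, Guca1a to the left in both, and Gucy2e and Rgs9 near 0.

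Of these members, 3 hold the letters TAATCC or their reverse complement GGATTA, the core recognised by the photoreceptor factor CRX, within 100 to 21 bases before the annotated start. They are shown because 2 of them, Gucy2e and Guca1a, were at least as high in cones as in rods of the library labelled GFP, while Gucy2f was past 2-fold higher in rods. All 3 stretches are read 5′ to 3′ on the minus strand (RefSeq, GRCm38.p6), with the core in capitals: Gucy2e at chr11:69237043-69237122, Guca1a at chr17:47400627-47400706 and Gucy2f at chrX:142196957-142197036.
Gucy2e: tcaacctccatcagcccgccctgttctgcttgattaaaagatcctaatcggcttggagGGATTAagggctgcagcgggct
Guca1a: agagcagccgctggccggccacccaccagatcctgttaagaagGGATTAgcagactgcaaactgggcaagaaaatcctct
Gucy2f: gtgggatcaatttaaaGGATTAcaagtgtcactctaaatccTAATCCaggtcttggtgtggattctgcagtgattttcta
Both strands were searched in windows of 300 bases around the start. Gnb5 holds the core closer to its start, at base −6, so that 4 of the 8 members with a window hold it, against 2320 of 32851 windows (7.06%). No window was at hand for Rcvrn and Guca1b, and a match is again a description of letters.

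Every member was also counted in every other class. In bipolar cells, the retinal interneurons that photoreceptors contact, Guca1a stood at 464 and 290.1 CPM (libraries labelled GFP and sponge) and Pdc at 796 and 377 CPM. In fibroblasts Guca1a was at 445 and 230 CPM. With each cell thinned to 1000 UMIs, Guca1a had a UMI in 58.5% of rods and 38.5% of fibroblasts (library labelled GFP), and in 62.5% and 21.4% (library labelled sponge). Before thinning these shares were 74.5% and 64.2%, and 85.9% and 74.7%, at median depths of 1608 and 2382 UMIs and of 2337 and 7049.5 UMIs. At least 3 of the 10 members had a UMI in 85.1% and 89.6% of thinned rods, 80.7% and 85.3% of thinned cones, 47.1% and 22.2% of thinned bipolar cells and 40.9% and 13.3% of thinned fibroblasts. Free RNA from broken photoreceptors can give such UMIs in droplets of other cells, and it would keep the counts of its genes in 1 ratio in every class of a library. Each member was therefore set against the UMIs of 8 rod phototransduction genes in the same cells, with the rod subunits of transducin, phosphodiesterase and the channel among them.

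**Figure D2:**
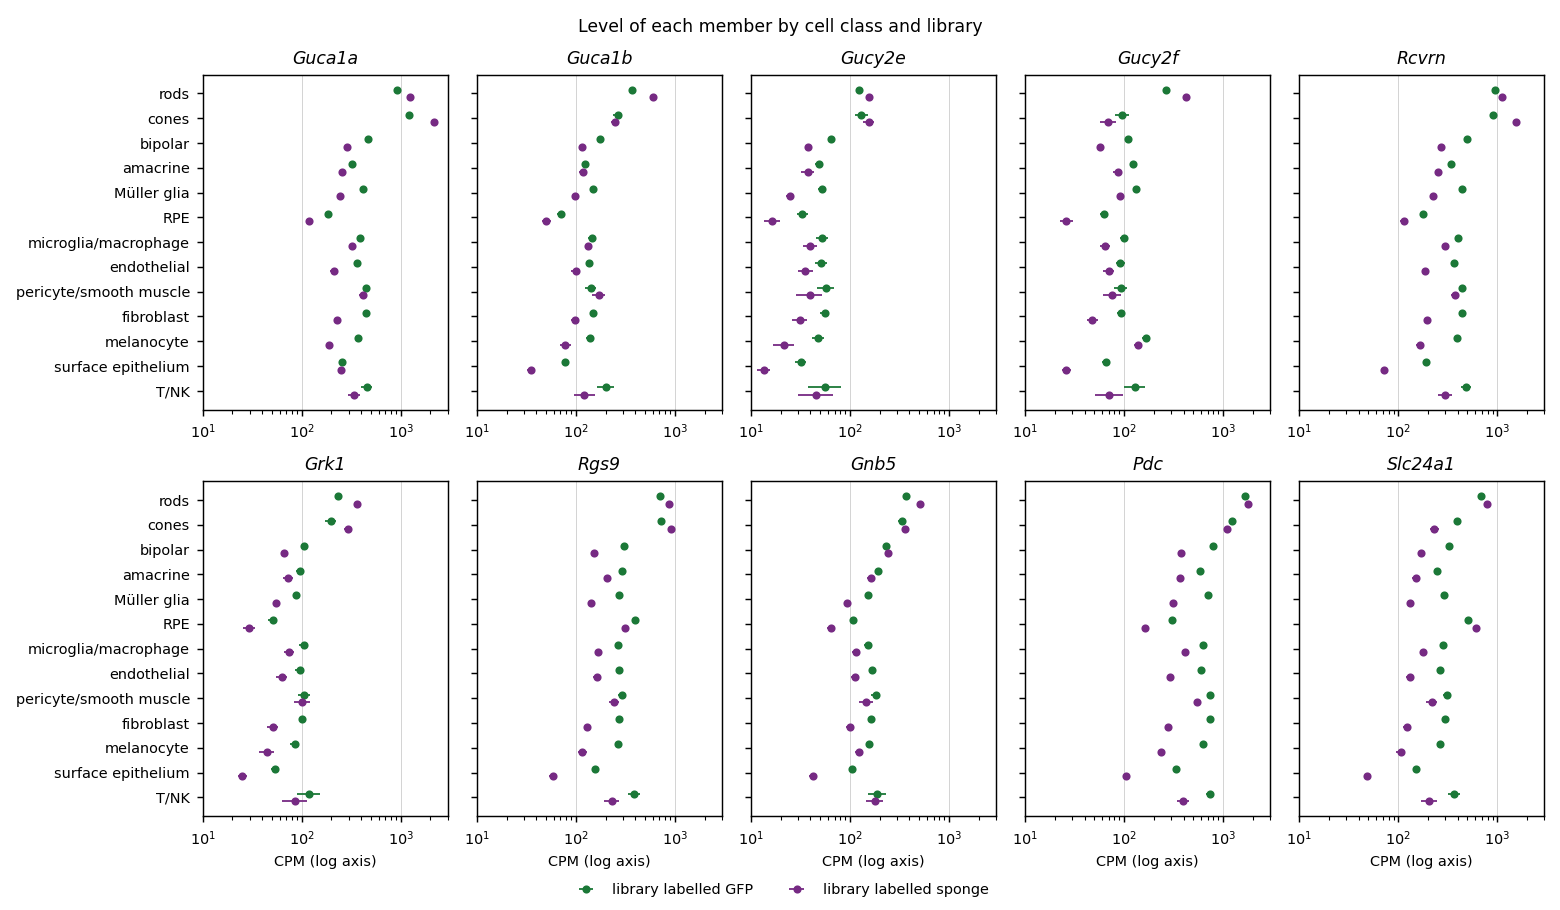
CPM of each member (horizontal log axis) in 13 cell classes (vertical axis) of the library labelled GFP (green) and the library labelled sponge (purple), with 95% Poisson intervals. Rods or cones are highest in each panel, no class is at 0, and Slc24a1 has a second high point in retinal pigment epithelium (RPE).

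Some members kept nearly the same ratio in the 11 other classes. Pdc ranged from 106 to 126 UMIs per 1000 rod-gene UMIs in the library labelled GFP and from 103 to 124 in the library labelled sponge, against 129.6 and 126 in rods. Rcvrn ranged from 67.4 to 75.4 and from 74.5 to 84.9, against 73.7 and 79.6 in rods. Guca1b ranged from 23.1 to 28.6 and from 31.9 to 39.8, against 29.0 and 42.0 in rods. Levels of these genes outside photoreceptors are called background here and are not read as expression of a class. The source of these UMIs was not tested, and no doublet was removed. Expression in a part of a class, such as a kind of bipolar cell, was not tested either. The ratio itself was not the same in the 2 libraries. For Guca1b the median of the other classes was 26.4 and 37.0 in the libraries labelled GFP and sponge, for Guca1a 70.9 and 88.0, and for Grk1 17.2 and 20.9, beside 18.2 and 25.7 in rods. For Gucy2f that median was 18.3 and 18.7, while rods were at 20.6 and 29.9.

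Some classes stood apart from the common ratio. In RPE, the pigmented layer that serves the outer segments, Slc24a1 was at 202 per 1000 rod-gene UMIs where the median of the 11 classes was 52.1 (library labelled GFP), and at 431 where it was 49.6 (library labelled sponge), which were 3.88 and 8.68 times the median. Its level in RPE was 505 CPM (489 to 522) and 613 CPM (595.0 to 632), above cones and below rods in both libraries. Rgs9 stood apart in the same class, at 159 against a median of 49.9 and at 222 against 55.1, with 397 and 316 CPM. Gnb5, the partner of Rgs9, was at 42.6 in RPE of the library labelled GFP, 1.44 times the median and close to amacrine cells at 41.5, and at 45.2 in RPE of the library labelled sponge, where the median was 45.0. Rgs9bp, the membrane anchor of RGS9, was at 36.5 and 23.0 CPM in RPE and at 170 and 221 CPM in rods.

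Outside RPE, further classes stood apart for single members. Gnb5, which is expressed in neurons widely, had 243 CPM in bipolar cells of the library labelled sponge and 232 CPM in those of the library labelled GFP. Against the rod genes that was 73.7 (median of the classes 45.0) and 35.5 (median 29.6). Gucy2f in melanocytes, pigment cells of the choroid, was at 31.1 against a median of 18.3 and at 63.2 against 18.7. In Müller glia, the radial glia of the retina, it was at 34.7 in the library labelled sponge and at 22.2 in the library labelled GFP, where amacrine cells (26.7), RPE (25.2) and surface epithelium (23.0) were higher. Guca1a in surface epithelium was at 90.9 against 70.9 in the library labelled GFP and at 266 against 88.0 in the library labelled sponge.

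The same measure separated the members in cones. Guca1a stood at 129 and 306 per 1000 rod-gene UMIs in cones, 1.82 and 3.48 times the median of the other classes. Rcvrn stood at 96.8 and 217, and Rgs9 at 77.3 and 128, all above the median in both libraries. Grk1 was at 20.8 (median 17.2) and 41.4 (median 20.9), and Gucy2e at 13.8 (median 9.47) and 21.8 (median 11.6). In the library labelled GFP neither was separated from RPE, at 20.4 for Grk1 and 13.2 for Gucy2e, within the counting intervals of cones. In the library labelled sponge the highest other class, surface epithelium, was lower than cones, at 26.8 and 14.3. Gucy2f in cones was below the median, at 10.1 and 9.71 where the other classes had medians of 18.3 and 18.7. Slc24a1 was also below it, at 41.9 and 32.8 where they had 52.1 and 49.6. The cone UMIs of Gucy2f and Slc24a1 are therefore not read as cone expression, and their source was not tested. Guca1b in cones, at 28.0 and 35.0 against 26.4 and 37.0, was not separable from background by this measure. Pdc, at 129.5 and 154 against 120 and 113, was close to the background ratio in the library labelled GFP. Gnb5, at 35.6 and 51.2 against 29.6 and 45.0, was below the highest other class in both libraries.

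**Figure D3:**
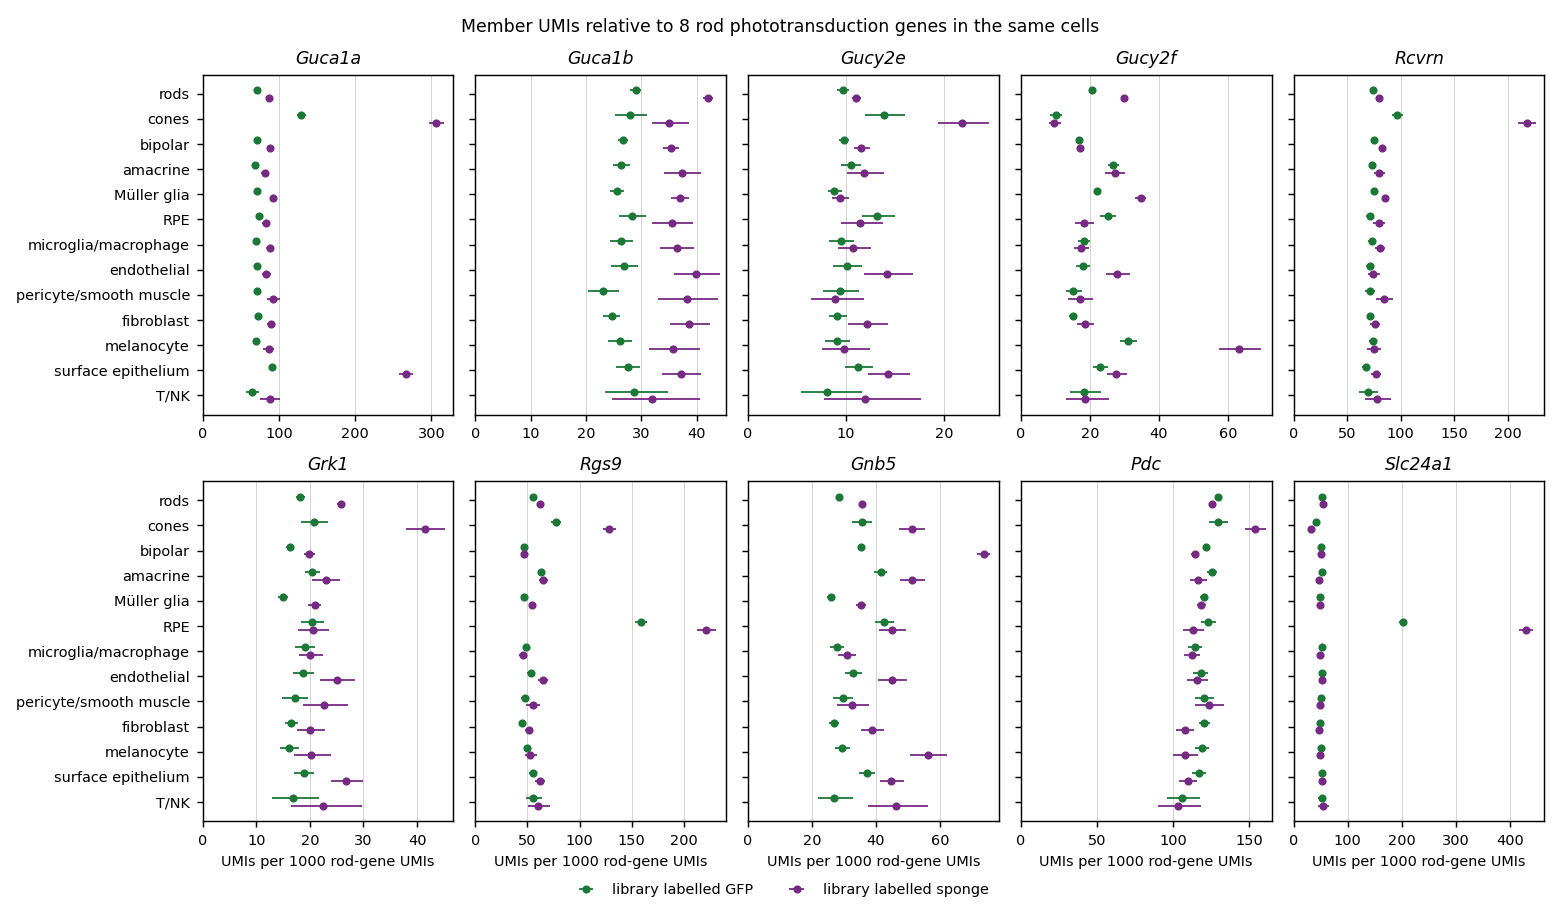
UMIs of each member per 1000 UMIs of 8 rod phototransduction genes in the same cells (horizontal axis, linear from 0) by cell class (vertical axis). The library labelled GFP is green and the library labelled sponge purple. Bars are 95% Poisson intervals of the member's count, without the counting error of the rod-gene sum. Most classes line up with rods, while Slc24a1 and Rgs9 in RPE, Guca1a and Rcvrn in cones, Gucy2f in melanocytes and Guca1a in surface epithelium stand apart.

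Between the libraries, all 10 members were higher in rods of the library labelled sponge, and 0 were past 2-fold, where 5.93% of 15915 measured genes were (1.80% higher and 4.13% lower). Their log2 ratios, sponge over GFP, ran from 0.10 to 0.68 with a median of 0.38, beside a median of 0.08 over all measured genes, of which 56.8% were above 0. The largest were Guca1b (372 and 597 CPM; log2 0.68, 0.62 to 0.74), Gucy2f (265 and 425 CPM; 0.68, 0.61 to 0.75) and Grk1 (234 and 366 CPM; 0.65, 0.57 to 0.72). Gucy2f and Grk1 are the members with a full seed match shown above, and Guca1b holds none. Gnb5 was at 0.47 (0.41 to 0.53), Guca1a at 0.42 (0.38 to 0.46), Gucy2e at 0.33 (0.23 to 0.44) and Rgs9 at 0.30 (0.26 to 0.35).

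The smallest differences in rods were those of Rcvrn, at 0.26 (0.22 to 0.30), Slc24a1, at 0.19 (0.15 to 0.24), and Pdc, at 0.10 (0.07 to 0.13). The direction of Pdc did not hold with cells thinned to 1000 UMIs (−0.01) or weighted equally (−0.01). Split at a finer clustering, most rods of each library lay in different clusters, 1 with 4600 and 1024 cells and 1 with 630 and 4720 cells, and within these clusters the members' median was 0.30 and 0.34. In the first of them Slc24a1 was at −0.05 (−0.13 to 0.04), against 0.24 (0.14 to 0.34) in the second. Gucy2f was at 0.47 in the first and 0.32 in the second, both below its value over all rods. Gnb5, at 0.47 over all rods, was at 0.30 and 0.29 within them and at 0.21 under a stricter cell filter. Rgs9, at 0.30 over all rods, was at 0.09 and 0.19 within them and at 0.04 under the stricter filter.

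**Figure D4:**
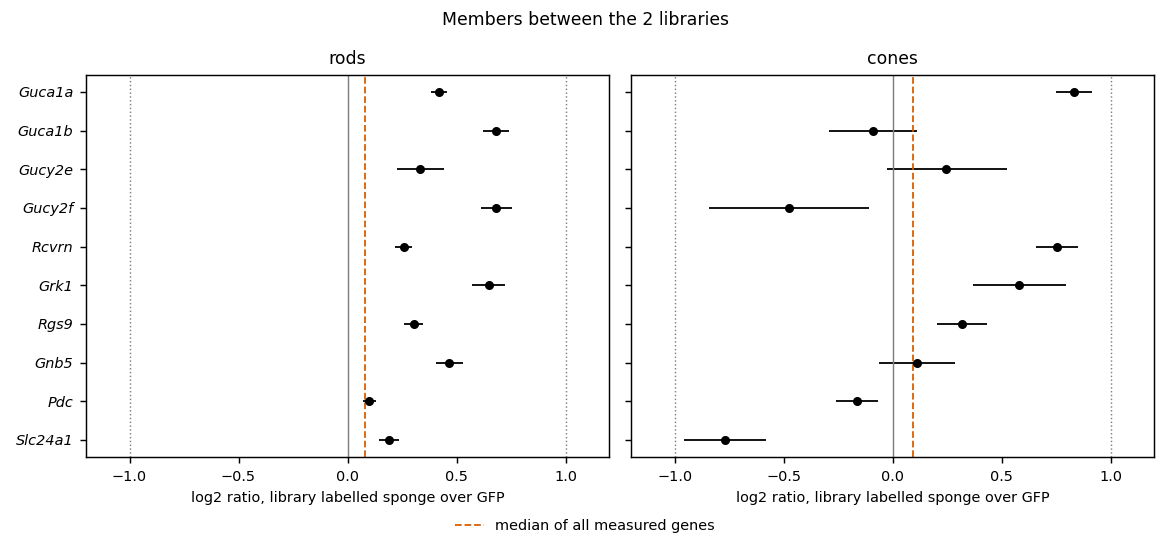
Log2 ratio, sponge over GFP by label (horizontal axis), for each member (vertical axis) in rods (left) and cones (right), with 95% counting intervals, the median of all measured genes (dashed) and 2-fold (dotted). In rods all 10 points are above 0, from 0.10 to 0.68, and in cones they spread from −0.77 to 0.83.

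Other genes of the pathway were mixed in the same rods. Of the 9 rod activation genes (transducin, phosphodiesterase and channel subunits among them) 8 were above 0, with a median of 0.32. Gngt1, the transducin γ subunit, was the exception at −0.55. Among 12 other shut-off and calcium genes 6 were above 0, including Ppef2, a phosphatase, at 0.84, Sag, rod arrestin, at 0.54, and Rd3, which controls cyclase traffic, at 0.54. Calm2, a calmodulin gene, was at −0.50. Of 25 measured relatives of the members, 6 were above 0 and the median was −0.39. Cone activation genes counted in rods were below 0 in 9 of 9, with a median of −0.54. The 12 rod markers summed to 19073 and 22932 CPM in rods, with 11 of 12 higher in the library labelled sponge. Marker sums of other cells in rods were lower in that library for Müller glia (12 markers, 4350 and 3584 CPM, none at 0), RPE (12 markers, 1436 and 843 CPM, none at 0) and bipolar cells (14 markers, 2849 and 2439 CPM, none at 0), and so was that of erythroid cells (6 markers, 1246 and 171 CPM, 1 at 0 in the library labelled GFP). By single markers, 1 of 12 for Müller glia, 0 of 12 for RPE, 2 of 14 for bipolar cells and 2 of 6 for erythroid cells were higher there. Sums were higher for surface epithelium (11 markers, 232 and 336 CPM, none at 0), amacrine cells (10 markers, 724 and 765 CPM, none at 0) and microglia and macrophages (14 markers, 174 and 188 CPM, none at 0). Single markers were higher in 8 of 11, 3 of 10 and 7 of 14, so most amacrine markers were not higher although their sum was. The part of these marker sums, of depth and of mitochondrial share in the members' ratios was not tested.

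In cones the members did not share a direction: 6 were higher in the library labelled sponge and 4 lower, with a median of 0.18 beside 0.09 over all measured genes, of which 58.3% were above 0, and 0 were past 2-fold, where 7.84% of 11102 measured genes were. The calcium sensor Guca1a was at 1219.9 and 2169.7 CPM, a log2 ratio of 0.83 (0.75 to 0.91), and Rcvrn at 915 and 1541 CPM, a ratio of 0.75 (0.66 to 0.85). Grk1 was at 0.58 (0.37 to 0.80) and Rgs9 at 0.32 (0.20 to 0.43). The intervals of Gucy2e at 0.24, Gnb5 at 0.11 and Guca1b at −0.09 included 0.

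Of the members, 3 had a lower CPM in cones of the library labelled sponge by more than counting error. For Slc24a1 and Gucy2f, whose cone UMIs are not read as cone expression above, the values are not read as a difference in cone expression. Slc24a1 was at 396 and 232 CPM, a log2 ratio of −0.77 (−0.96 to −0.58), Gucy2f at 95.7 and 68.8 CPM, a ratio of −0.47 (−0.84 to −0.11), and Pdc at 1223 and 1092 CPM, a ratio of −0.16 (−0.26 to −0.07). Set against the rod genes, Pdc in cones was at 129.5 and 154 per 1000, where the other classes had medians of 120 and 113. Its lower CPM is therefore not read as lower cone expression. In the same cones 8 of 9 rod activation genes were lower (median −0.62) and 9 of 9 cone activation genes were higher (median 1.07, 5 past 2-fold), among them Opn1sw at 1.44, and Slc24a2 was at 0.78. The 11 cone markers summed to 12111 CPM in cones of the library labelled GFP and 23053 CPM in those of the library labelled sponge, and the 12 rod markers to 14119 and 12561 CPM, with none at 0. Median depth in cones was 1796 and 3577 UMIs, and haemoglobin genes summed to 833 and 103 CPM. The part of these in the members' ratios was not tested. Under a stricter cell filter Guca1a (1.02) and Gucy2f (−1.08) passed 2-fold, and with cells thinned to 1000 UMIs Gucy2f was at 0.03.

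Outside photoreceptors the ratios ran the other way. Of 110 ratios, 10 members in 11 classes, 107 were below 0, with a median of −0.70 and a lowest value of −1.68. Over all measured genes the share above 0 in these classes ran from 32.3% in surface epithelium and 37.5% in RPE to 56.4% in amacrine cells, and the median from −0.37 in surface epithelium to 0.07 in T and NK cells. The 9 rod activation genes were all below 0 in each of these classes. Their medians ran from −0.35 in pericytes and smooth muscle to −1.50 in surface epithelium. Where a member kept the common ratio to rod genes, its value here is not read as a difference in expression. The 3 member ratios above 0 were Slc24a1 in RPE at 0.28, Guca1b in pericytes and smooth muscle at 0.26 and Gnb5 in bipolar cells at 0.07. At the finer clustering the RPE cells lay in different clusters by library, 1 with 823 and 172 cells and 1, led by eGFP and interferon-induced genes, with 228 and 371 cells. Slc24a1 was at 0.45 (0.38 to 0.52) in the first and −0.36 (−0.54 to −0.17) in the second, so its direction in RPE did not hold. Rgs9 in RPE, at −0.33 over all cells, was at −0.41 and −0.42. In both clusters and libraries the ratios to rod genes were above the medians of the classes, from 77.8 to 729 per 1000 for Slc24a1 and from 62.7 to 318 for Rgs9. Slc24a1 in RPE and Gnb5 in bipolar cells are pairs that stood apart from the common ratio to rod genes in the library labelled sponge.

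Across the 26 sums of 13 classes in 2 libraries, each member was set against the 10783 genes that reached 20 CPM in a class of each library, by Pearson's r of log2(CPM + 1). These points share their library, their free RNA and 2 high classes, so r is given as a description. Rcvrn was most like Pde6g (r = 0.995), a phosphodiesterase subunit, Grk1 and Gucy2e were most like Sag (0.996 and 0.989), and Guca1b was most like Prph2 (0.991), a disc rim protein. Rp1, a protein of the outer segment's microtubules, was among the 3 genes most like Pdc (0.989). Guca1a was most like Uckl1 (0.975) and next Aipl1 (0.957), a chaperone of phosphodiesterase. Rgs9 was most like Zdhhc2 (0.973) and Gnb5 most like Ndrg3 (0.968). Slc24a1 was most like Ahcyl1 (0.890), and Fsd1l was among the 3 genes most like Gucy2f (0.883). Among the members the values ran from 0.41, for Guca1a with Slc24a1, to 0.98, for Gucy2e with Grk1.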

How the data were processed

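The deposited matrices hold UMI counts per gene and barcode, which the authors did not normalise as far as the values show. Libraries used the 10x 3′ chemistry per the labels' protocols, and Cell Ranger 7.0.0 and mm10 are named in the submitters' processing notes. How introns and strand were handled is not stated in the labels. Barcodes below 300 genes or 500 UMIs, or above 25% mitochondrial UMIs, were removed. The rest were clustered jointly without the members (scanpy 1.11.5, 2000 variable genes, 30 components, 15 neighbours, leidenalg 0.10.2, resolution 1, 29 clusters). Scrublet called 0 cells in either library, so it did not work, and no doublet was removed. A cluster was named where 3 or more markers were 2-fold or more above the median of clusters, at 20 CPM or more and at 25% or more of their highest cluster, and with no unrelated class close behind. This rule was set after seeing the clusters, and unnamed clusters held 29.2% and 32.3% of cells. Members, context lists and markers were chosen with earlier results of these data known, and no list supports another. All 10 members are named, with members of 4 context lists, and for each member a gene among the 3 most like it.

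A gene was measured with at least 20 UMIs over both sides of a comparison. Log2 ratios had 0.5 added to each count, with exact binomial intervals of the counts. CPM and UMIs per 1000 rod-gene UMIs have exact Poisson intervals of the gene's count, and shares have Clopper-Pearson ones, all at 95%. They cover counting error only. No test was run. The ratio and its interval were checked on simulated data with known folds. Alternatives were a stricter filter (500 genes, 1000 UMIs, 10% mitochondrial), resolution 2, classes by marker score per cell, thinning, median-of-ratios scaling, leaving out the 10% of cells with the highest doublet scores, equal weights of cells and no count minimum. The doublet scores are those of the Scrublet run that called 0 cells, so that alternative cannot show whether doublets affect the values. Rod and RPE clusters of resolution 2 taken alone and rods joined with the haemoglobin-led cluster were added after seeing the data. The rod genes used as denominator are the rod activation list without Gnb1, which other cells express. Some genes are not reported here.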

Additional observations from a re-analysis of the deposited data

Results flagged for a closer look

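Of the members, 3 had opposite directions in the 2 photoreceptor classes when the library labelled sponge was set against the library labelled GFP. Slc24a1 was at −0.77 on the log2 scale in cones and 0.19 in rods. Gucy2f was at −0.47 in cones and 0.68 in rods. Pdc was at −0.16 in cones and 0.10 in rods. The cone UMIs of Slc24a1 and Gucy2f are below the median ratio of the other classes to rod genes, so their cone values are not read as cone expression. Pdc in cones of the library labelled GFP was close to that ratio, at 129.5 per 1000 rod-gene UMIs where the median of the other classes was 120. Each class is 1 sum per library, so the difference between classes was not tested. The opposite directions of Gucy2f were absent with cells thinned to 1000 UMIs (0.03 in cones), those of Slc24a1 in rod cluster 1 of resolution 2 alone (−0.05 in rods), and those of Pdc with cells thinned (−0.01 in rods) or weighted equally (−0.01 in rods).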

How the results depend on the processing

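No paired analysis was possible because each group holds 1 library whose cells are not assigned to mice. The members' median log2 ratio in rods, 0.38, was 0.29 under the stricter cell filter, 0.54 with cells assigned by marker score, 0.28 with cells thinned to 1000 UMIs, 0.30 with cells weighted equally and 0.30 in rod cluster 1 of resolution 2 alone. The number of members past 2-fold in cones, 0, was 2 under the stricter filter. The other counts of members past 2-fold and of members highest in rods or cones kept their value under every alternative run, and the cones' median stayed between 0.05 and 0.30. Over all alternatives for single members, the sign was kept in 107 of 110 ratios in rods and 77 of 80 in cones. The exceptions were Pdc (2) and Slc24a1 (1) in rods and Guca1b, Gucy2f and Gnb5 (1 each) in cones. These tallies include the setting without a count minimum, which could not change a member because all 10 were measured in both classes. Median-of-ratios scaling, also included, moves every member of a class by the same amount. In RPE, Slc24a1 at 0.28 was −0.36 in RPE cluster 33 of resolution 2 alone and 0.45 in cluster 21. The cause of these shifts was not tested. Taking each cluster of a class alone equals the reported values, since rods and cones are 1 cluster each. The counts that bound the cone values are few, 137 and 120 UMIs for Gucy2f, whereas rods rest on at least 1029 UMIs per member and library.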
